A study of Mus musculus with 13 samples.

Results

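The genes of MHC class I antigen presentation were followed in hematopoietic stem and progenitor cells (HSPCs) of mice with mutant p53, oncogenic Nras, or both. They are 10 of the 54838 genes in the count table: the heavy chains H2-K1, H2-D1, H2-Q4, H2-Q6, H2-Q7, and H2-T23, the light chain B2m, and the peptide loading genes Tap1, Tap2, and Tapbp. The list was chosen by name, with earlier results of the same libraries known: H2-Q6 had been the gene called in NrasG12D mice, and H2-Q7 had been on a list of genes lower in NPmut mice. Differences of the 10 genes between NrasG12D, NPmut, and control mice are therefore given as a description, with no p-value. On GRCm38, 9 of the genes lie in the MHC on chromosome 17: Tapbp at chr17:33915899-33929292, H2-K1 at chr17:33996017-34000347, Tap1 at chr17:34187553-34197225, Tap2 at chr17:34203527-34216321, H2-D1 at chr17:35262730-35267499, H2-Q4 at chr17:35379617-35385290, H2-Q6 at chr17:35424850-35430055, H2-Q7 at chr17:35439155-35443773, and H2-T23 at chr17:36029773-36032855. B2m lies apart at chr2:122147686-122153083. All 10 passed the filter on low counts, with at least 145 counts for each gene in every mouse.

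RNA was sequenced from Lin-cKit+ bone marrow cells, 50000 sorted per mouse, of C57BL/6J mice. All 13 carried Mx1-Cre, an interferon-inducible recombinase, and 3 control mice carried nothing else. The 3 p53mut mice carried 1 p53 allele with the R172H mutation, the 3 NrasG12D mice 1 Nras allele with G12D, and the 4 NPmut mice both, each at its endogenous locus behind a stop cassette that Cre removes. Control, p53mut, and NrasG12D mice were given pI-pC, a double-stranded RNA mimic that triggers interferon, in 3 doses of 100 μg from about 6 weeks of age, whereas NPmut mice received none and were moribund with acute myeloid leukemia (AML). The injected mice were age-matched to the moribund NPmut mice. Injection and disease stage thus cannot be told apart from genotype in any comparison with NPmut mice. Gene counts do not show which allele a read came from, so the mutations themselves were not checked here. The replicates are separate mice.

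Total counts ran from 12576174 in NPmut 4 to 29124022 in NPmut 2, and from 13357504 to 18383281 in the 9 control and single-mutant mice. The progenitor marker Kit was abundant, at 284 to 710 CPM (counts scaled to library size with TMM factors) over all mice. Cd34, at 195 to 373 CPM, was abundant too. Cd3e and Cd79a stayed at 0.591 CPM or less in every mouse, but summed lymphoid markers were higher. The 6 T and NK cell markers summed to 54.2 to 68.8 CPM in control and to 38.3 to 58.3 CPM in NPmut mice. The 5 B cell markers summed to 12.5 to 15.98 CPM in control and to 13.7 to 25.9 CPM in NPmut mice. Markers of cell types differed in level between groups: the summed level of 5 megakaryocyte markers was 13.5 to 69.3 CPM in NPmut mice and 124 to 200 CPM in control mice, that of 8 erythroid markers 53.2 to 263 CPM against 333 to 469 CPM, and that of 7 monocyte and macrophage markers 380 to 942 CPM against 218 to 247 CPM. Of 4 dendritic cell markers tested, 3 were called higher in NPmut than in control mice and 1 lower, with a median log2 fold change of 2.56, while the summed level of all 5 listed, 18.1 to 27.4 CPM, overlapped the 18.3 to 25.9 CPM of control mice. In NrasG12D mice the megakaryocyte, erythroid, and monocyte sums were 171.9 to 191, 285 to 386, and 183 to 263 CPM. The 6 HSPC markers summed to 2591 to 2960 CPM in NrasG12D, to 1724 to 2204 CPM in NPmut, and to 2152 to 2481 CPM in control mice. Their median log2 fold change against control mice was 0.53 in NrasG12D and -0.05 in NPmut mice. The 5 stromal and endothelial markers summed to 103 to 116 CPM in NrasG12D, to 124 to 155 CPM in NPmut, and to 79.2 to 101 CPM in control mice. In NrasG12D mice the medians were -1.70 for 6 neutrophil markers and -2.66 for the 3 B cell markers tested, with 0 called in either list. Neutrophil sums overlapped, at 9315 to 13706 CPM in NrasG12D and 10849 to 13540 CPM in control mice. The sums of all 5 listed B cell markers overlapped too, at 8.72 to 13.7 CPM in NrasG12D and 12.5 to 15.98 CPM in control mice. Fewer cells of one type and less RNA per cell cannot be told apart in such bulk samples, and the part that cell composition has in the values below was not tested.

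MHC class I molecules display peptides from inside the cell to CD8 T cells and NK cells. A heavy chain pairs with β2-microglobulin, the product of B2m, and binds a peptide that the proteasome has cut and that the TAP1/TAP2 transporter has pumped into the endoplasmic reticulum, with tapasin, the product of Tapbp, bridging the transporter and the empty class I molecule. H2-K1 and H2-D1 encode the classical heavy chains, which present peptides to CD8 T cells. H2-Q6 and H2-Q7 belong to the genes for Qa-2, and H2-T23 encodes Qa-1, a nonclassical molecule read by NK cell receptors. Interferons raise most of these genes through IRF factors and the transactivator NLRC5, acting on a short stretch of promoter that the heavy chain genes share.

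That stretch is shown for 5 heavy chain genes that share it and whose levels, given below, differed between groups by unequal amounts, with the B2m promoter beside them. Promoters were taken from RefSeq on GRCm38.p6, from 250 bases before to 50 bases after each start site, and 9 of the 10 genes had an entry. Windows run from 8 bases before the first match to 8 bases after the Y box. H2-Q4 lacks the Y box letters, so its window was given the length of the H2-K1 window, 143 bases. The B2m window ends 8 bases after the TGACG before the start site. Further TGACG matches of H2-Q4 and B2m, past the start site, lie outside the windows. Capitals mark matches on either strand to GGGNNTTCC (an NF-κB motif), GAANNGAAA or GAAANNGAAA (interferon response motifs, the former found as TTTCACTTC on the other strand), TGACG (a cyclic AMP response half-site), and CTGATTGG (a Y box, read CCAATCAG on the other strand).
H2-K1 (chr17:34000324-34000466, minus strand): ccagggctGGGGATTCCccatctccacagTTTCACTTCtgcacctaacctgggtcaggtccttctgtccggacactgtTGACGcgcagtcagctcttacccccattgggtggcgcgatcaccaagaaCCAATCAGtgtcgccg
H2-D1 (chr17:35262915-35263056, plus strand): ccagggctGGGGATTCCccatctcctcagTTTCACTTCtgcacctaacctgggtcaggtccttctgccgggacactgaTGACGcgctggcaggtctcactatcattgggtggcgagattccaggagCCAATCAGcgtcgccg
H2-Q4 (chr17:35379436-35379578, plus strand): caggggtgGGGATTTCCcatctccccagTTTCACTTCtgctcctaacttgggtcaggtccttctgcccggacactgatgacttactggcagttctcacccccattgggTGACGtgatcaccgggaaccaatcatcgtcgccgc
H2-Q6 (chr17:35424669-35424810, plus strand): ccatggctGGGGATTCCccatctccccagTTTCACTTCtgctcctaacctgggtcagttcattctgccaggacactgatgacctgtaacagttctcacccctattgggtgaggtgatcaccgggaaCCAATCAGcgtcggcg
H2-Q7 (chr17:35439014-35439154, plus strand): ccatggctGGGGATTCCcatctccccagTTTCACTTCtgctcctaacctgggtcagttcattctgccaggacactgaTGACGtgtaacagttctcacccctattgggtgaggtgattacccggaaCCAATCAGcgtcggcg
B2m (chr2:122147540-122147621, plus strand): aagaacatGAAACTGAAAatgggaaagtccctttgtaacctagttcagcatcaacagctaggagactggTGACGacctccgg
The NF-κB motif was present in the promoters of H2-K1, H2-D1, H2-Q4, H2-Q6, and H2-Q7, and in 5.82% of all 32851 promoters of the same length. The same 5 genes held GAANNGAAA, which 7.52% of all promoters held, with identical letters in each. B2m and H2-T23 held the longer GAAANNGAAA instead, which 3.44% of promoters held. The Y box was found in 6 of the 9 genes and in 4.1% of promoters, and TGACG in 6 of the 9 and in 20.8%. Tapbp matched none of the motifs, which says only that these letters are not in its window. The windows of H2-Q6 and H2-Q7 were the most alike, with 97.2% identical positions (138 of 142 aligned), whereas those of H2-K1 and H2-D1 were 88.1% identical and the least alike pairs 83.2%. H2-Q7 holds TGACG between the NF-κB motif and the Y box and H2-Q6 does not.

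Class I genes are near copies of one another, and how reads that match several genes were counted is not given in the sources used here. Of all 50-base windows in the annotated transcripts of H2-Q4, 36.4% also occurred in another gene on either strand, overlapping genes included. The share was 35.0% for H2-Q6, 26.5% for H2-Q7, 14.5% for H2-T23, 12.8% for H2-D1, and 9.63% for H2-K1. For H2-Q4 the largest part, 15.3%, was shared with Gm11131, which overlaps it on the opposite strand. Windows shared with another of the 10 genes on the same strand were 13.4% for H2-Q4, 24.5% for H2-Q6, and 8.38% for H2-Q7. The pair H2-Q6 and H2-Q7 shared 284 such windows, 13.9% of those of H2-Q6 and 6.31% of those of H2-Q7, which shared still more with H2-Q10 (14.0%). At 100 bases the shares fell to 14.1% for H2-Q4 (11.8% with Gm11131), 13% for H2-Q6, and 12% for H2-Q7, and to 0.957% for H2-K1. B2m shared no window, but it lies wholly within the span of Patl2 on the opposite strand, and Tap1 overlaps Psmb9 by 212 bases. Tap2, Tapbp, H2-Q4, and H2-T23 overlap other annotated genes too, so levels of single Q genes, and of genes with an overlapping partner, are uncertain by whatever reads the counting gave to the neighbor.

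**Figure D1:**
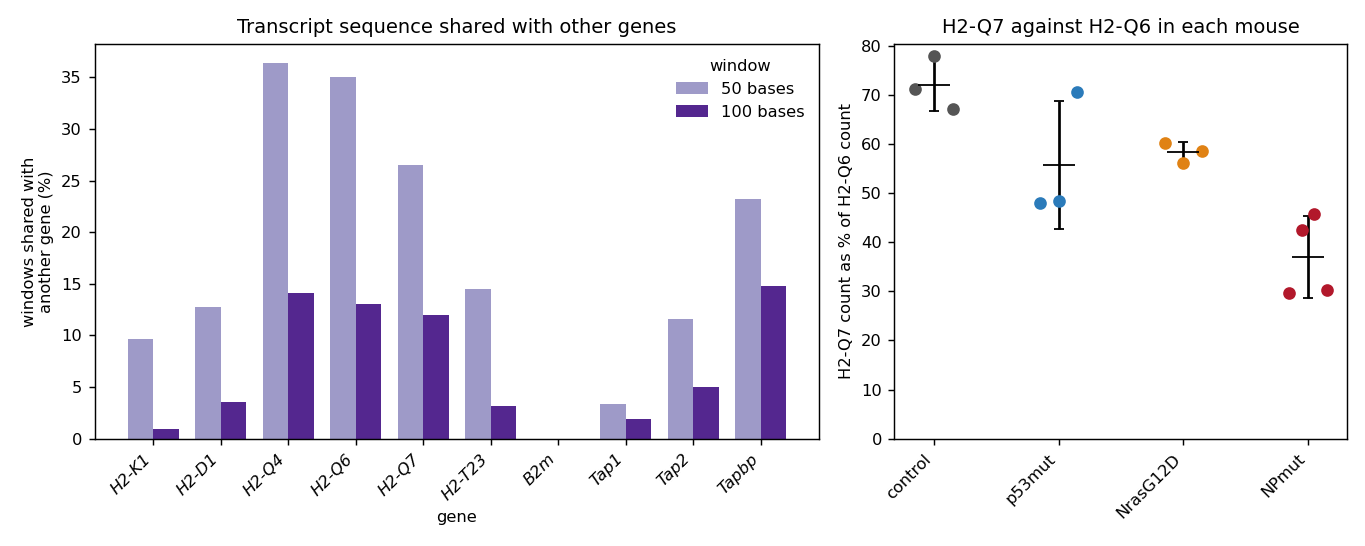
Left, the share of 50-base and 100-base transcript windows of each gene that also occurs in another gene on either strand, overlapping genes included, in percent. Right, the H2-Q7 count as a percent of the H2-Q6 count in each mouse, with the group mean and SD as black bars. At 50 bases H2-Q4 and H2-Q6 share the most sequence. At 100 bases Tapbp does (14.8%), mostly with Gm19412 (14.7%), which overlaps it on the opposite strand. B2m shares none, and the 4 NPmut mice lie between 29.6% and 45.7%, below the 3 control mice at 67.2% to 77.9%.

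Per length, B2m stood highest in every group, and H2-Q7 lowest. In control mice B2m had 598 ± 19.6 RPKM (reads scaled by exon length and library depth, SD, n = 3), H2-K1 154 ± 3.17, and H2-D1 123 ± 5.61, each apart from its neighbor in all mice. Below them came Tap2 at 36.8 ± 10.1 RPKM, then Tapbp at 27.5 ± 0.628, H2-Q6 at 23.9 ± 3.25, and Tap1 at 23.3 ± 2.61, of which H2-Q6 overlapped both Tapbp and Tap1, while Tapbp and Tap1 were apart. H2-Q4 followed at 17.3 ± 0.597 RPKM, H2-T23 at 13.7 ± 1.61, and H2-Q7 at 8.39 ± 1.00. The order changed in the mutants: in NrasG12D mice H2-Q6 rose to the fourth place, at 49.4 ± 4.78 RPKM, though its range overlapped that of Tap2, and in NPmut mice H2-D1, at 146 ± 27.3 RPKM (n = 4), stood beside H2-K1, at 135 ± 17.1 RPKM, with overlapping ranges.

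Together the 10 genes made up 1760 ± 40.6 CPM in control mice, 2024 ± 133 in p53mut mice, 2443 ± 83.1 in NrasG12D mice, and 1821 ± 398 in NPmut mice. NrasG12D mice held the most class I RNA, and their range, 2356 to 2521 CPM, lay above that of control mice, 1735 to 1807 CPM. The 4 NPmut mice spread from 1443 to 2379 CPM, on both sides of the control range.

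**Figure D2:**
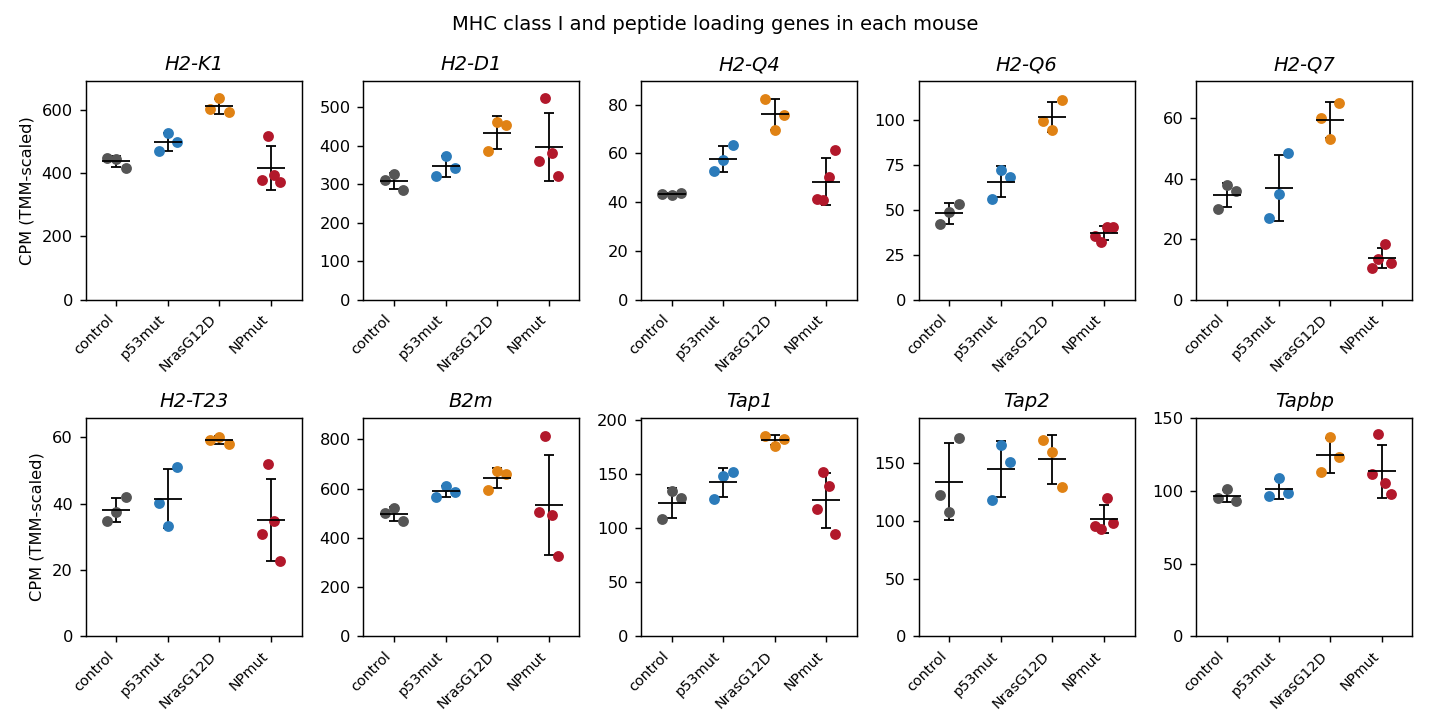
TMM-scaled CPM of each of the 10 genes in each mouse, one panel per gene with its own linear axis from 0; points are mice, and black bars are group means with SD (n = 3 for control, p53mut, and NrasG12D, n = 4 for NPmut). All NrasG12D mice lie above all control mice except for Tap2, and H2-Q6 and H2-Q7 are the genes for which all NPmut mice lie below all control mice.

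The classical heavy chains were higher in NrasG12D than in control mice and did not move together in NPmut mice. H2-K1 had 449, 446, and 418 CPM in control mice, 471, 527, and 500 in p53mut mice, 605, 638, and 593 in NrasG12D mice, and 380, 519, 394, and 372 in NPmut mice. H2-D1 had 310, 328, and 285 CPM in control mice, 321, 373, and 343 in p53mut mice, 386, 462, and 455 in NrasG12D mice, and 361, 524, 381, and 321 in NPmut mice. For both genes every NrasG12D mouse stood above every control mouse, and NPmut mice overlapped the controls. The log2 fold changes of NrasG12D against control mice were 0.48 ± 0.13 (SE) for H2-K1 and 0.50 ± 0.16 for H2-D1. Against control mice, NPmut mice differed by -0.07 ± 0.12 for H2-K1 and by 0.37 ± 0.15 for H2-D1. Against NrasG12D mice, all 4 NPmut mice were lower for H2-K1, by -0.56 ± 0.12, while H2-D1, at -0.13 ± 0.15, overlapped.

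H2-Q6 and H2-Q7 had the largest differences of the 10 genes between NPmut and NrasG12D mice, and H2-Q4 did not follow them in NPmut mice. H2-Q6 had 42.1, 48.6, and 53.5 CPM in control mice, 55.8, 72.4, and 68.5 in p53mut mice, 99.7, 94.7, and 111 in NrasG12D mice, and 35.7, 32.0, 40.5, and 40.5 in NPmut mice. The 4 groups did not overlap at all, in the order NPmut, control, p53mut, and NrasG12D from low to high. H2-Q7 had 30.0, 37.8, and 35.9 CPM in control mice, 26.8, 35.0, and 48.5 in p53mut mice, 60.1, 53.1, and 65.0 in NrasG12D mice, and 10.6, 13.6, 18.5, and 12.2 in NPmut mice. Here p53mut mice overlapped the controls, NrasG12D mice stood above all others, and NPmut mice below all others. H2-Q4 had 43.3, 43.0, and 43.9 CPM in control mice, 52.7, 57.2, and 63.4 in p53mut mice, 82.4, 69.7, and 75.7 in NrasG12D mice, and 41.2, 40.8, 50.1, and 61.2 in NPmut mice. H2-Q4 resembled its neighbors in NrasG12D mice but not in NPmut mice, where it overlapped the controls.

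Against control mice, the log2 fold change of H2-Q6 was 1.08 ± 0.13 in NrasG12D mice, 0.45 ± 0.13 in p53mut mice, and -0.37 ± 0.13 in NPmut mice. Those of H2-Q7 were 0.78 ± 0.21, 0.09 ± 0.21, and -1.33 ± 0.20, and those of H2-Q4 were 0.81 ± 0.14, 0.41 ± 0.14, and 0.15 ± 0.14. H2-Q7 thus had the widest span, from 59.4 ± 5.99 CPM in NrasG12D mice to 13.7 ± 3.42 CPM in NPmut mice. Because reads can pass between these genes, their counts were also summed: H2-Q4, H2-Q6, and H2-Q7 together gave 0.93 ± 0.14 in NrasG12D mice, 0.35 ± 0.14 in p53mut mice, and -0.33 ± 0.13 in NPmut mice, all against control mice. The H2-Q7 count was 72.1 ± 5.43% of the H2-Q6 count in control mice, 55.7 ± 13% in p53mut mice, 58.3 ± 2.08% in NrasG12D mice, and 37.0 ± 8.30% in NPmut mice. The 3 Q genes made up 13.9 ± 1.25% of the CPM of the 6 heavy chains in control mice, 17.7 ± 1.66% in NrasG12D mice, and 10.8 ± 2.73% in NPmut mice.

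H2-T23, the gene for Qa-1, had 34.7, 37.4, and 42.0 CPM in control mice, 40.1, 33.3, and 51.1 in p53mut mice, 59.3, 60.2, and 58.0 in NrasG12D mice, and 30.8, 52.0, 34.8, and 22.7 in NPmut mice. NrasG12D mice were alike and above all other mice, whereas NPmut mice spread around the controls. The difference from control mice was 0.64 ± 0.23 in NrasG12D mice and -0.11 ± 0.21 in NPmut mice on the log2 scale.

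B2m, the light chain of every one of these molecules, had 500, 523, and 467 CPM in control mice, 568, 612, and 588 in p53mut mice, 596, 670, and 660 in NrasG12D mice, and 504, 814, 492, and 325 in NPmut mice. All p53mut and all NrasG12D mice stood above all control mice, and NPmut mice held both the highest and the lowest value of the series. The log2 fold changes against control mice were 0.25 ± 0.22 in p53mut mice, 0.37 ± 0.22 in NrasG12D mice, and 0.10 ± 0.21 in NPmut mice. Set against the 2 classical heavy chains, the B2m level in CPM was 0.667 ± 0.00860 of their sum in control mice, 0.698 ± 0.0189 in p53mut mice, 0.614 ± 0.0149 in NrasG12D mice, and 0.641 ± 0.130 in NPmut mice. The ratio was nearly constant among control mice and ranged from 0.469 to 0.780 among NPmut mice.

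Of the loading genes, Tap1, 1 subunit of the peptide transporter, had 108, 134, and 128 CPM in control mice, 127, 148, and 152 in p53mut mice, 185, 176, and 182 in NrasG12D mice, and 118, 152, 139, and 94.0 in NPmut mice. Tap2, the partner subunit, had 123, 107, and 171 CPM in control mice, 118, 165, and 151 in p53mut mice, 170, 160, and 129 in NrasG12D mice, and 95.4, 92.9, 119, and 97.6 in NPmut mice. The transporter's subunits differed from each other: Tap1 was above all control mice in every NrasG12D mouse, whereas Tap2 overlapped, with control 3 above all 3 NrasG12D mice. Their log2 fold changes in NrasG12D against control mice were 0.55 ± 0.15 for Tap1 and 0.19 ± 0.18 for Tap2, and in NPmut against control mice 0.03 ± 0.14 and -0.40 ± 0.16. Tapbp ranged from 92.7 to 101 CPM in control mice, from 96.6 to 109 in p53mut mice, from 113 to 137 in NrasG12D mice, and from 97.7 to 139 in NPmut mice. Tapbp, at -0.13 ± 0.12, and H2-D1 had the smallest differences between NPmut and NrasG12D mice of the 10 genes, and Tapbp was 0.37 ± 0.13 above control mice in NrasG12D mice.

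**Figure D3:**
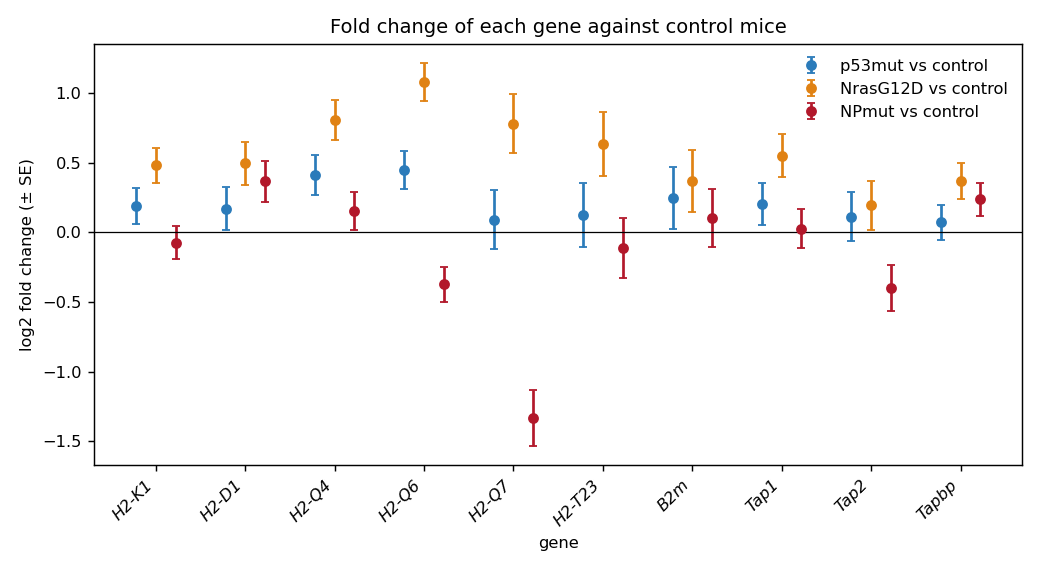
Log2 fold change against control mice, with its SE, of each of the 10 genes in p53mut, NrasG12D, and NPmut mice, from the fit to all 13 libraries. The NrasG12D values lie above 0 for all 10 genes, from 0.19 for Tap2 to 1.08 for H2-Q6, and those of NPmut mice run from -1.33 for H2-Q7 to 0.37 for H2-D1; the 3 comparisons share the same control mice.

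Over the 10 genes, the median log2 fold change of NrasG12D against control mice was 0.53, and that of all 17795 genes tested was -0.02. Every NrasG12D mouse stood above every control mouse for 9 of the 10 genes, where 10.2% of all genes tested did so. The edgeR quasi-likelihood test called 1 of the 10 higher, H2-Q6, at an adjusted p-value under 0.05, and 0.00562% of all genes, that same gene alone. Nothing is read from these counts, since the contrast chose the genes. The call depended on the libraries in the fit: it was lost without control 1, control 2, or any of the NrasG12D mice, 2 of the 10 were called without NPmut 4, and 4 without NPmut 2. With only control and NrasG12D mice in the fit, 8 were called, all but Tap2 and Tapbp. DESeq2 called 3, H2-K1, H2-Q4, and H2-Q6. The share over all genes called in these other fits is not given here, and nothing is read from their counts either.

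In p53mut mice, which differ from the control mice by the p53 allele alone, none of the 10 genes passed the edgeR test. The count was 0 in each direction, with 0% of all 17795 genes called higher and 0% lower, an adjusted p-value of 0.9997 for each of the 10, 2 of them at an unadjusted p-value under 0.05 (H2-Q4 and H2-Q6), and 0 called by DESeq2. All 3 p53mut mice stood above all control mice for H2-K1, H2-Q4, H2-Q6, and B2m, 4 of the 10 genes against 5.41% of all genes. The median log2 fold change of the 10 was 0.18, with 0.00 for all genes, and the values ran from 0.07 ± 0.13 for Tapbp to 0.45 ± 0.13 for H2-Q6. The control mice are the same as in the comparison with NrasG12D mice. Leaving out p53mut 3 turned H2-Q7 from 0.09 to -0.15 and H2-T23 from 0.13 to -0.04, and leaving out control 2 turned Tap2 from 0.11 to -0.01.

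In NPmut mice the 10 genes were split around the control level. Their median log2 fold change against control mice was -0.02, with 0.01 for all genes, and 5 were above and 5 below 0. The edgeR test called H2-Q7 lower and 0 higher, where 5.58% of all genes were called lower and 5.25% higher, 4 of the 10 had an unadjusted p-value under 0.05, and DESeq2 called 0 higher and 2 lower, H2-Q6 and H2-Q7. Every NPmut mouse stood below every control mouse for H2-Q6 and H2-Q7, 2 of the 10 genes, where 11.7% of all genes did so. Nothing is read from these counts either, because H2-Q7 was chosen on this contrast. H2-Q7 kept its call when any 1 mouse was left out, with values from -1.50 to -1.22. These fits use the same mice in which it had been listed as lower, so the kept call is a description too. The summed count of H2-Q4, H2-Q6, and H2-Q7, at -0.33 ± 0.13, was not called. The signs of the smallest differences depended on single mice: B2m ran from -0.18 to 0.29, H2-T23 from -0.37 to 0.05, and Tap1 from -0.08 to 0.15 as each mouse was left out.

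Against NrasG12D mice, all 10 genes were lower in NPmut mice, with a median log2 fold change of -0.58 and 0.04 for all genes. The largest differences were -2.11 ± 0.20 for H2-Q7, -1.46 ± 0.12 for H2-Q6, and -0.75 ± 0.21 for H2-T23, and the smallest -0.13 ± 0.15 for H2-D1, -0.13 ± 0.12 for Tapbp, and -0.27 ± 0.21 for B2m. H2-K1, H2-Q4, H2-Q6, H2-Q7, H2-T23, Tap1, and Tap2 were called lower, 7 of the 10, and 0 higher (0 by DESeq2, and the 7 with an unadjusted p-value under 0.05 were all lower), where 4.86% of all genes were called lower and 4.04% higher. The same 7 had every NPmut mouse below every NrasG12D mouse, against 10.9% of all genes. The count fell to 4 without NPmut 1 or NrasG12D 1, to 3 without NrasG12D 2, and to 3 with only these 2 groups in the fit, H2-Q6, H2-Q7, and Tap2. These values have the NrasG12D mice in common with the comparison that chose the genes and are a description.

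The interaction, the log2 difference between NPmut mice and the sum of the changes in both single mutants, was below 0 for all 10 genes, with a median of -0.74 and 0.05 for all genes. It was -2.20 for H2-Q7, -1.91 for H2-Q6, -1.07 for H2-Q4, and -0.74 for H2-K1, the 4 genes called lower, where 1.14% of all genes were called lower and 0.489% higher. It was -0.20 for Tapbp and -0.30 for H2-D1, at the other end. Nothing is read from the 4 calls either, because the interaction contains the contrasts on which H2-Q6 and H2-Q7 were chosen. Leaving out 1 mouse gave 2 to 7 calls, with 7 without NPmut 2 and 2 without control 2, p53mut 3, or NrasG12D 1. The double mutants were not injected with pI-pC and both single mutants were, which enters the interaction in full.

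The NPmut mice spread over a wider range than each other group for 7 of the 10 genes, though 4 mice give a wider range than 3 by number alone. The exceptions were Tap2, H2-Q6, and H2-Q7, at 1.29-fold, 1.27-fold, and 1.75-fold in NPmut mice against up to 1.6-fold, 1.30-fold, and 1.81-fold in another group. The highest level over the lowest had a median of 1.56-fold over the 10 genes in NPmut mice, and of 1.18-fold in control, 1.2-fold in p53mut, and 1.18-fold in NrasG12D mice, and reached 2.51-fold for B2m and 2.29-fold for H2-T23. NPmut 2 was highest for H2-K1, H2-D1, H2-T23, B2m, Tap1, and Tapbp, and NPmut 4 was lowest for the same 6. For H2-Q4, H2-Q6, and Tap2, however, NPmut 2 was the lowest of the 4, and NPmut 4 the highest for H2-Q4. Values of other genes moved with this order: NPmut 2 and NPmut 4 had 842 and 424 CPM summed over 5 immunoproteasome and PA28 genes, 399 and 264 CPM over 4 constitutive counterparts, and 7833 and 4716 CPM over 7 loading partners and chaperones. They were also the deepest and the shallowest library, and the part of depth or RNA quality in this order was not tested.

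Genes around the 10 were taken from lists of the class I pathway, 84 genes of which 80 were tested, and their adjusted p-values are from the edgeR test over all 17795 genes. In NrasG12D against control mice, 0 of the 80 were called, though 70 had a log2 fold change above 0 with a median of 0.41, 39 had an unadjusted p-value under 0.05, and DESeq2 called 14, all higher. With only these 2 groups in the fit edgeR called 21, and leaving out NPmut 2, NPmut 4, p53mut 3, or NPmut 1 gave 6, 3, 2, and 1. The share over all genes called by DESeq2 or in these other fits is not given here, so their counts have no background beside them. In p53mut mice 0 were called, with 6 at an unadjusted p-value under 0.05 and 0 by DESeq2. In NPmut against control mice 14 were called higher and 10 lower, and against NrasG12D mice 4 higher and 19 lower. Over all genes 5.25% were called higher and 5.58% lower in the former comparison, and 4.04% and 4.86% in the latter, so that the 4 higher calls are near the share over all genes. The lists were written with earlier results of these libraries known.

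Among the other class I and class I-like heavy chains, 16 of 20 were tested, and 2 were higher and 1 lower in NPmut than in control mice, where the 1 lower of 16 is near the 5.58% called lower over all genes. H2-T24, a neighbor of H2-T23 in the T region, had 14.0, 18.5, and 18.6 CPM in control mice, 15.7, 12.6, and 21.4 in p53mut mice, 26.1, 23.7, and 31.2 in NrasG12D mice, and 7.18, 5.83, 7.80, and 6.40 in NPmut mice. Every NPmut mouse was below every other mouse, with a log2 fold change of -1.32 ± 0.19 against control mice (edgeR, adjusted p = 0.000745) and of -1.99 ± 0.19 against NrasG12D mice (edgeR, adjusted p = 5.5e-05), so that H2-T24 had the largest fall in this list. H2-M3, which presents formylated peptides, went the other way, from 7.01 to 9.66 CPM in control mice to 10.4 to 17.3 CPM in NPmut mice (0.80 ± 0.20, edgeR, adjusted p = 0.0167). Fcgrt, the neonatal Fc receptor, which also pairs with β2-microglobulin, rose from 1.18 to 2.03 CPM to 2.19 to 6.51 CPM (1.58 ± 0.48, edgeR, adjusted p = 0.0488). H2-Q2 was lower in NPmut than in NrasG12D mice (-1.07 ± 0.30, edgeR, adjusted p = 0.0374).

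Among the lists of proteasome subunits and of loading partners and chaperones, which do not hold Tap1, Tap2, or Tapbp, edgeR and DESeq2 called 0 genes in NrasG12D or NPmut against control mice. The 5 immunoproteasome and PA28 genes had 0 calls in NPmut against control mice, with 3 at an unadjusted p-value under 0.05, 0 by DESeq2, and a median log2 fold change of 0.40, and 0 calls in NrasG12D against control mice, with 1 at an unadjusted p-value under 0.05, 0 by DESeq2, and a median of 0.29. Psmb8, an immunoproteasome subunit, had 155, 155, and 157 CPM in control mice, 191, 210, and 192 in NrasG12D mice, and 186, 303, 210, and 137 in NPmut mice. It lay above all controls in NrasG12D mice (0.35 ± 0.21, edgeR, adjusted p = 0.681) and in 3 of the 4 NPmut mice (0.43 ± 0.20, edgeR, adjusted p = 0.184). Psmb9, the divergent neighbor of Tap1, differed by 0.29 ± 0.20 and 0.19 ± 0.19. The 7 loading partners, trimming enzyme, and chaperones, among them Calr, Canx, and Pdia3, had median differences of 0.00 in NrasG12D and -0.06 in NPmut against control mice, with 0 calls, 0 and 1 at an unadjusted p-value under 0.05, and 0 by DESeq2. The 4 constitutive proteasome counterparts had medians of -0.09 and 0.10, with 0 calls, 0 at an unadjusted p-value under 0.05, and 0 by DESeq2.

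Of the 18 regulators of class I transcription, edgeR called 2 higher and 0 lower in NPmut than in control mice, with 6 at an unadjusted p-value under 0.05. DESeq2 called 3 higher and 0 lower. Over all genes edgeR called 5.25% higher and 5.58% lower, so 2 calls among 18 genes are not read as a trait of the list. Irf8, a myeloid and interferon-linked factor, had 130, 140, and 134 CPM in control mice, 141, 196, and 201 in NrasG12D mice, and 490, 609, 392, and 442 in NPmut mice. All NPmut mice were above all others (1.84 ± 0.23, edgeR, adjusted p = 0.000453). Relb, an NF-κB subunit, rose from 1.32 to 2.10 CPM to 2.26 to 7.89 CPM (1.5 ± 0.42, edgeR, adjusted p = 0.034). Nlrc5, the class I transactivator, had 57.2, 73.7, and 94.4 CPM in control mice, 115, 86.2, and 130 in NrasG12D mice, and 74.7, 36.3, 74.2, and 79.7 in NPmut mice. It overlapped the controls in both mutants (0.56 ± 0.26 and -0.18 ± 0.24, edgeR, adjusted p = 0.547 and 0.683), and NPmut 2, the mouse with the most H2-K1 and B2m among the NPmut mice, had the least Nlrc5.

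Irf9, a transcription factor of the type I interferon response, had 39.2, 47.2, and 48.0 CPM in control mice, 53, 52, and 69.2 in p53mut mice, 77.1, 86.0, and 90.4 in NrasG12D mice, and 51.1, 54.8, 49.3, and 39.1 in NPmut mice. NrasG12D mice stood above all others, by 0.91 ± 0.15 against control mice (edgeR, adjusted p = 0.0551), just short of a call. NPmut mice were lower than NrasG12D mice for Irf9 (-0.80 ± 0.14, edgeR, adjusted p = 0.00311) and for Creb1 (-0.36 ± 0.11, edgeR, adjusted p = 0.0493), and higher for Irf8 (1.43 ± 0.23, edgeR, adjusted p = 0.00227). Against control mice Irf1 differed by 0.52 ± 0.15 in NrasG12D mice and by 0.34 ± 0.14 in NPmut mice (edgeR, adjusted p = 0.258 and 0.155), above all controls in every mouse of both groups.

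Interferon-stimulated genes had medians on opposite sides of the control level in NrasG12D and NPmut mice. The median log2 fold change of 12 type I interferon-stimulated genes was 1.58 in NrasG12D and -0.91 in NPmut against control mice. In NrasG12D mice 0 of the 12 were called, with 11 at an unadjusted p-value under 0.05 and 6 called by DESeq2. In NPmut mice 4 of the 12 were called lower and 0 higher, where 5.58% and 5.25% of all genes were. The 4 were Oasl2 (-1.38 ± 0.22, edgeR, adjusted p = 0.00152), Ifi44 (-1.46 ± 0.37, edgeR, adjusted p = 0.0208), Ifit1 (-1.19 ± 0.34, edgeR, adjusted p = 0.0351), and Irf7 (-1.01 ± 0.29, edgeR, adjusted p = 0.0361). Oasl2 had 12.6, 15.2, and 15.7 CPM in control mice, 34.0, 40.0, and 54.4 in NrasG12D mice, and 7.44, 5.22, 5.33, and 4.05 in NPmut mice. Against NrasG12D mice 8 of the 12 were called lower in NPmut mice, where 4.86% of all genes were, and the median of the 12 was -2.49.

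Of 7 interferon-gamma-inducible GTPases, 5 were called lower and 1 higher in NPmut against control mice, where 5.58% and 5.25% of all genes were. The 5 were Iigp1 (-1.46 ± 0.43), Irgm2 (-0.90 ± 0.23), Gbp2 (-0.87 ± 0.19), Irgm1 (-0.71 ± 0.17), and Gbp7 (-0.50 ± 0.12), and the 1 was Gbp3 (0.75 ± 0.21), with edgeR adjusted p-values from 0.0108 to 0.0427. Against NrasG12D mice 6 of the 7 were called lower, where 4.86% of all genes were. In NrasG12D against control mice 0 were called, with 6 at an unadjusted p-value under 0.05, 2 by DESeq2, and a median of 0.59. Of the 4 interferon receptor genes, 3 were called higher in NPmut than in control mice, where 5.25% of all genes were. The 3 were Ifngr2 (0.95 ± 0.19, edgeR, adjusted p = 0.00589), Ifnar2 (0.70 ± 0.15, edgeR, adjusted p = 0.00954), and Ifnar1 (0.45 ± 0.11, edgeR, adjusted p = 0.0172). The calls of the lists rested in part on the controls: the 14 higher and 10 lower calls against control mice became 7 and 3 without control 3, 10 and 3 without control 2, 11 and 6 without control 1, 19 and 7 without NPmut 4, and 8 and 3 with only these 2 groups in the fit.

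**Figure D4:**
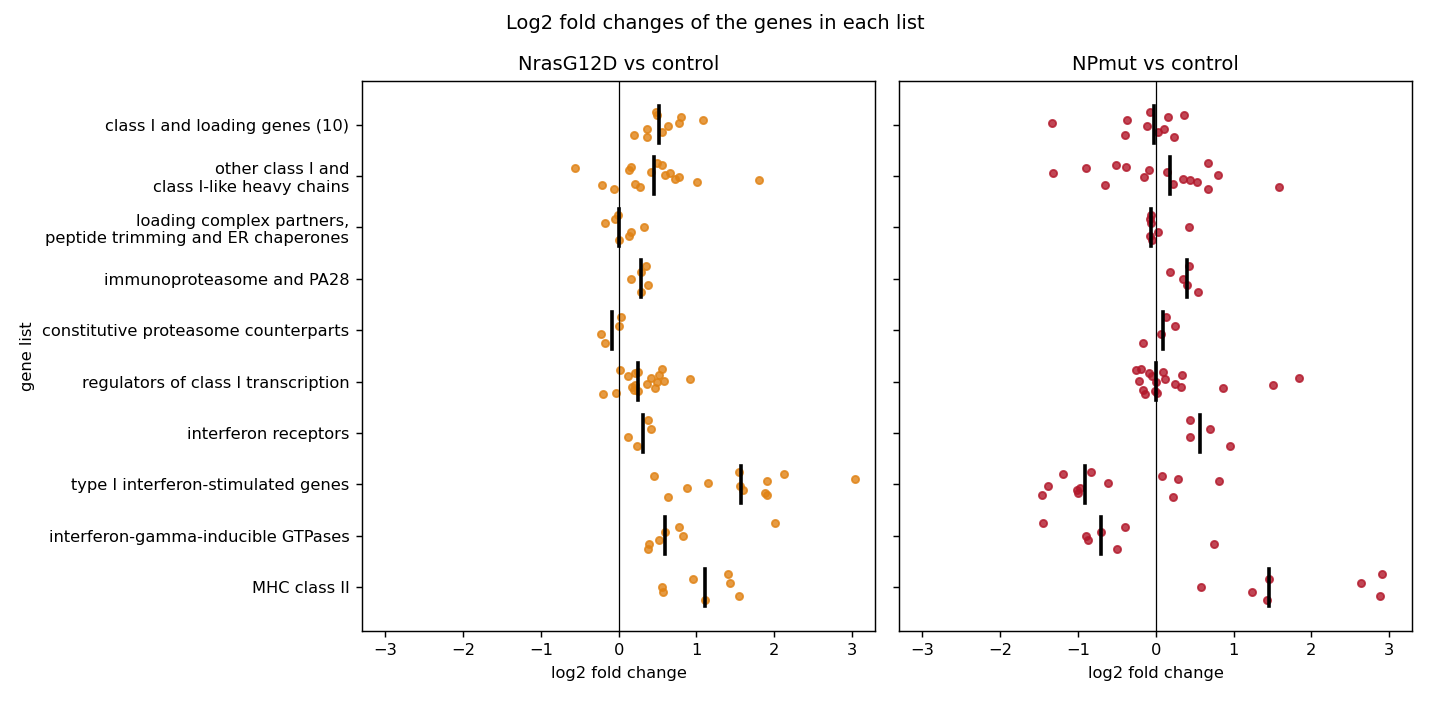
Log2 fold changes of each gene of the 10 lists in NrasG12D (left) and NPmut (right) against control mice; points are genes, and black bars are list medians. In NrasG12D mice the medians run from -0.09 for the constitutive proteasome counterparts to 1.58 for the type I interferon-stimulated genes, and in NPmut mice from -0.91 for the latter to 1.46 for MHC class II.

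The pattern over mice was summarised as the mean of the standardised log2 CPM of the 10 genes. The 8 genes that followed it most closely were Irf9 (Pearson's r = 0.93 over 13 libraries), Igtp (0.92), Ifi35 (0.90), Ptov1 (0.89), Rnf181 (0.88), Nsun5 (0.88), Frmd8 (0.88), and Gm12250 (0.87), among genes whose log2 CPM averaged 3 or more. The 10 genes themselves followed their common profile with r from 0.60 for Tap2 to 0.96 for H2-K1. Several are interferon-inducible, among them Irf9, the immunity-related GTPase Igtp, and Ifi35. The libraries share groups and scaling, so the correlations are a description.

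**Figure D5:**
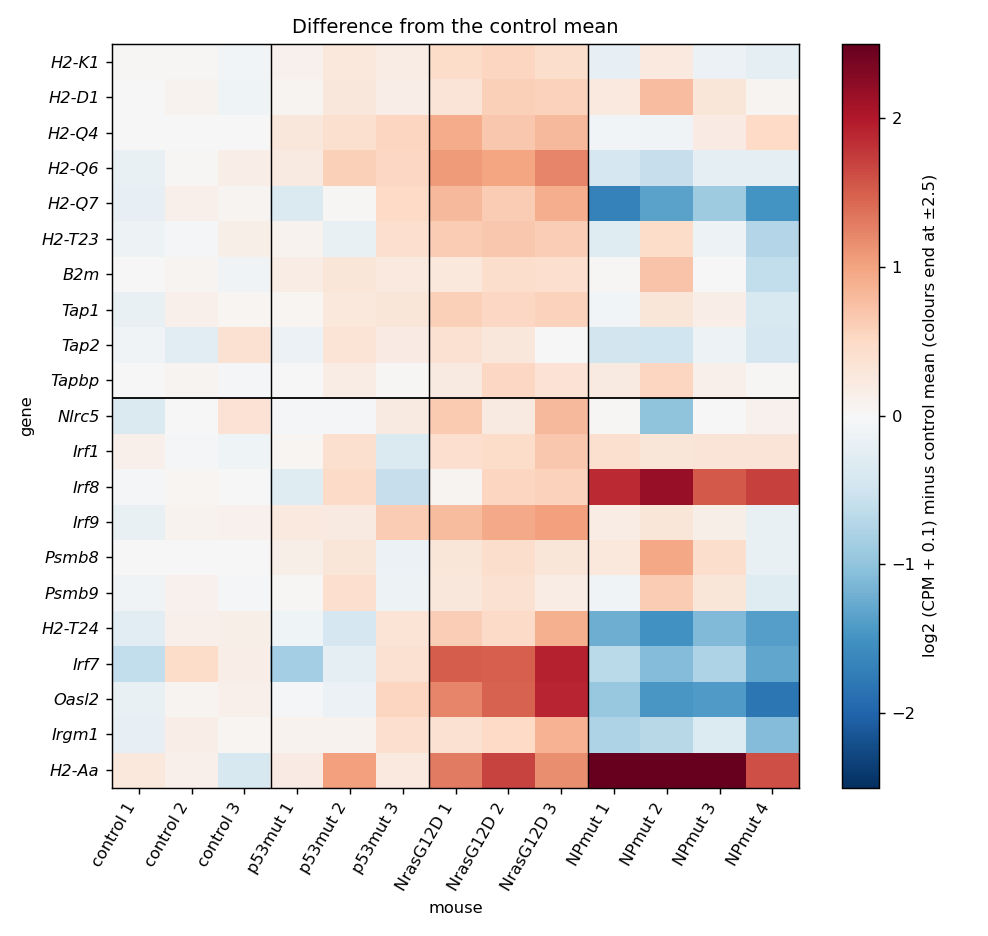
Difference of each mouse from the control mean in log2 CPM, for the 10 genes above the line and 11 pathway genes below it; columns are mice, and colours end at ±2.5. The Q genes, H2-T24, and the interferon-stimulated genes Irf7, Oasl2, and Irgm1 are red in NrasG12D mice, with H2-Q7, H2-T24, Irf7, Oasl2, and Irgm1 blue in NPmut mice, where Irf8 and the class II gene H2-Aa are red.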

How the data were processed

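RNA-Seq libraries were made with the SMARTer Stranded Total RNA-Seq Kit from sorted HSPCs of 3 control, 3 p53mut, 3 NrasG12D, and 4 NPmut mice. The authors deposited raw counts per gene for 54838 Ensembl identifiers, unnormalized whole numbers in one table. Their processing notes name STAR 2.6.1d, R 3.6.1, DESeq2 1.26.0, and GRCm38.p6. The counting program and its handling of strand and of reads with several matches are not given in the sources used here, and either can shift counts between class I copies or overlapping genes.

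GENCODE M21 gave names and exonic lengths for 54809 identifiers, and 29 had none. In R 4.3.3, edgeR 4.0.16 fitted 1 quasi-likelihood model (robust, TMM, filterByExpr, a mean per group) to all 13 libraries and 17795 genes. Benjamini-Hochberg adjustment covered all genes tested, and a gene was called at an adjusted p-value under 0.05. CPM and RPKM were computed here from the counts. Total counts were 12576174 to 29124022 per library, and genes with few counts are less precise. The 10 genes and all lists were chosen with earlier results of these data known. The text names each of the 10, the genes called in a list (at most 6), Nlrc5, Irf1, Psmb8, and Psmb9, and the 8 most similar genes, beside a few that serve as examples of a list. Some genes that the rule would name are not reported here.

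Alternatives were RLE factors, library totals, no filter or at least 10 counts in every library, DESeq2 1.42.0, only the compared groups, the replicate number as a block, each mouse left out, summed paralogs, and at least a 2-fold change. Same-numbered control and p53mut libraries deviated together only weakly (correlations 0.166, 0.163, and 0.152). Single same-numbered libraries of other groups reached 0.257 and 0.294. No label states a pairing, and these values do not establish one. The block changed no p53mut call. The script was tested on simulated data.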

Additional observations from a re-analysis of the deposited data

Results flagged for a closer look

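The interaction was called in the edgeR fit for 4 of the 10 genes, all lower, and for 14 of the 80 pathway genes, 1 higher and 13 lower, where 0.489% of all genes were called higher and 1.14% lower. For the 10 genes, which were chosen with these contrasts known, the values are a description. The log2 values were -0.744 for H2-K1, -1.07 for H2-Q4, -1.91 for H2-Q6, and -2.20 for H2-Q7. Among other heavy chains it was -1.95 for H2-T24. Among regulators it was 1.49 for Irf8, in the opposite direction, and -1.17 for Irf9. Interferon-stimulated genes had -3.51 for Ifit1, -3.10 for Oasl2, -2.40 for Irf7, -3.36 for Usp18, and -3.47 for Ifi44. The GTPases had -4.08 for Iigp1, -1.29 for Igtp, -1.50 for Irgm1, -1.93 for Irgm2, -1.70 for Gbp2, and -0.954 for Gbp7. Only the double mutants lacked pI-pC, which cannot be told apart from the interaction.

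Within the NPmut group, 52 sets of values were looked at, most of them single genes in log2 CPM and the rest sums or ratios of the 10 genes. In 2 of the 52, both single genes, 1 mouse lay far from the other 3. For Gbp2 the gap was 0.981 of the group's range, with 4.55 CPM in NPmut 4 and 8.07 to 8.16 CPM in the others. For Nlrc5 it was 0.908, with 36.3 CPM in NPmut 2 and 74.2 to 79.7 CPM in the others. Both gaps exceed Dixon's 95% critical value for 4 samples, and chance puts about 1 in 20 groups beyond it.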

How the results depend on the processing

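In NrasG12D against control mice, 1 of the 10 genes was called higher. The count was 0 with library totals, 7 without a filter on low counts, 3 with DESeq2, 8 with only the compared groups, 3 with summed paralogs (1 summed feature standing for its 3 genes), and 0 to 4 with each mouse left out. The 0 pathway calls became 1 with RLE factors, 17 without the filter, 14 with DESeq2, 21 with only the compared groups, 3 with summed paralogs, and 0 to 6 with each mouse left out. In NPmut against control mice, 0 of the 10 called higher became 1 without the filter and 0 to 1 with each mouse left out, and 1 called lower became 2 with library totals or DESeq2 and 0 with summed paralogs, and stayed at 1 with each mouse left out. The 14 pathway genes called higher became 8 with only the compared groups, 9 at a 2-fold change, and 7 to 19 with each mouse left out, and the 10 called lower became 3, 6, and 3 to 10. Against NrasG12D mice, 7 of the 10 called lower became 3 with only the compared groups, 2 at a 2-fold change, and 3 to 7 with each mouse left out; the 4 pathway genes called higher became 7 without the filter, 1 with only the compared groups, and 1 to 9. In the interaction, the 4 of the 10 called lower became 7 without the filter and 2 to 7 with each mouse left out, and the 1 pathway gene called higher 0 to 1. In p53mut mice, leaving out each mouse gave H2-Q7 from -0.153 to 0.276 and H2-T23 from -0.0424 to 0.266, both lowest and below 0 without p53mut 3, and Tap2 from -0.0126 to 0.335, below 0 without control 2. The causes were not tested, and the shares over all genes called under these settings are not given here.

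Other than control and p53mut, no pair of groups had same-numbered libraries that all deviated together, and no label states that the replicate numbers are a pairing. With the replicate number as a block, the 10 genes gave 3 calls in NrasG12D mice, 1 higher and 2 lower in NPmut against control mice, and the pathway 11 higher in NrasG12D mice, 9 higher in NPmut against NrasG12D mice, and 3 higher in the interaction. With the block and only the compared groups, the 10 gave 7 in NrasG12D mice and 3 lower in NPmut against NrasG12D mice, and the pathway 17 higher and, in NPmut against control mice, 4 lower.

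Library totals moved the median of all genes in NPmut against control mice from 0.01 to -0.11 and the share of higher calls from 48.5% to 32.3%, and against NrasG12D mice from 45.4% to 35.1%. With 3 or 4 mice per group, differences within the spread between mice are not shown to be absent.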

Other observations

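MHC class II genes, which present peptides from outside the cell, were called where the class I genes were split around the control level. Of 7 class II genes, 6 were called higher in NPmut against control mice and 0 lower, where 5.25% and 5.58% of all genes were. H2-DMa (0.58 ± 0.26, edgeR, adjusted p = 0.188) did not pass. In NrasG12D against control mice all 7 had a log2 fold change above 0, with a median of 1.11. There edgeR called 0 of them, 6 had an unadjusted p-value under 0.05, and DESeq2 called 3. H2-Aa had 3.45, 3.14, and 2.15 CPM in control mice, 7.17, 9.49, and 6.50 in NrasG12D mice, and 27.7, 31.3, 18.7, and 8.93 in NPmut mice (2.90 ± 0.39, edgeR, adjusted p = 0.000558). Cd74, the invariant chain, had 6.61, 10.4, and 6.86 CPM in control mice, 18.2, 32.2, and 19.3 in NrasG12D mice, and 75.9, 83.4, 49.3, and 24.4 in NPmut mice (2.88 ± 0.43, edgeR, adjusted p = 0.00167). Ciita, the class II transactivator and a relative of Nlrc5, rose from 1.89 to 2.96 CPM to 3.20 to 10.1 CPM (1.43 ± 0.37, edgeR, adjusted p = 0.0223). Against NrasG12D mice H2-Aa (1.5 ± 0.36, edgeR, adjusted p = 0.019) and H2-Eb1 (1.21 ± 0.29, edgeR, adjusted p = 0.019) were higher. NPmut 4 had the lowest class II level of the NPmut mice, 96 CPM summed over the 7 genes against 174 to 272 in the others. Markers of cells that carry class II differed from control mice in both directions. Of 4 dendritic cell markers tested 3 were called higher and 1 lower, from -1.10 to 3.48 (median 2.56), with Siglech at 3.48 ± 0.70 and Itgax at 2.09 ± 0.53. The summed level of all 5 listed overlapped that of control mice. Of 7 monocyte and macrophage markers 1 was called higher (median 1.2). Over all genes 5.25% were called higher and 5.58% lower. Of 3 B cell markers tested 0 were called (median -1.36), while all 5 listed summed to 13.7 to 25.9 CPM in NPmut and 12.5 to 15.98 CPM in control mice. The part of such cells in the class II values was not tested.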
